A study of Homo sapiens with 6 samples.

Results

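The A, B, D and E cyclins are 9 genes, CCNA1, CCNA2, CCNB1, CCNB2, CCND1, CCND2, CCND3, CCNE1 and CCNE2, taken by name from the 61852 genes of the count table. They were read in 6 RNA-seq libraries, made after poly(A) selection, of MEG-01, an established human megakaryoblastic leukaemia cell line. Of these libraries, 3 came from cells transduced with a MELK-targeting short hairpin RNA (sh2-MELK, called MELK knockdown) and 3 from cells transduced with the control vector pLKO.1 (called control). All 6 carry the batch label F5. The knockdown rests on 1 hairpin, and neither a second hairpin nor a rescue was analysed here. The title of the series places MELK, a kinase of proliferating cells, in the formation of megakaryocytes and platelets.

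Cyclins are the regulatory subunits of the cyclin-dependent kinases (CDKs), and most of them are made and destroyed once in each cell cycle. D cyclins join CDK4 and CDK6 in G1, E cyclins join CDK2 at the entry into S phase, A cyclins join CDK2 and then CDK1 through S and G2 phase, and B cyclins join CDK1 for mitosis. CCNA2 is the A cyclin of dividing somatic cells, whereas CCNA1 is best known from male germ cells and from myeloid leukaemias. In megakaryocytes, D and E cyclins are known for their part in endomitosis, the DNA replication without cell division that gives these cells their many genome copies. In bulk RNA, a change in the share of cells in a cycle phase and a change in transcript per cell cannot be told apart.

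Library totals were between 18945176 and 21711313 counts. Of all genes, 57.9% held only the values 0, 1, 2, 10 and 100 in all 6 libraries, as if 1 of these 5 numbers had been added to the reads of every value. Each member is therefore given as deposited, and again with the added number modelled, where each value is the reads plus 1 of the 5 numbers, each as likely as the others. MELK itself had deposited counts of 16, 124 and 26 in the knockdown libraries, against 219, 206 and 238 in the control libraries. Its log2 fold change was -1.98 ± 0.69 (SE) and did not pass edgeR's quasi-likelihood test (Benjamini-Hochberg adjusted p = 0.104, n = 3 each). Without knockdown replicate 2 it was -3.33 (edgeR adjusted p = 0.00286), and with the added number modelled it was -3.39 (95% interval -3.88 to -2.97). Of the megakaryocyte markers checked, ITGA2B, ITGB3, GP1BA, GATA1 and NFE2 fell and FLI1 rose (edgeR). GP9 and VWF had modelled means of 3.19 to 19.2 reads and did not pass in edgeR. PF4, a platelet granule chemokine, held only the 5 values. With the added number modelled VWF was called lower (6.17 reads in the knockdown, 19.2 in the control), and GP9 was not called. Of 13 lymphoid, epithelial and stromal markers, 9 were tested in edgeR, and KRT18 alone passed (0.52 ± 0.06 on the log2 scale, SE). With the added number modelled, COL1A1 (66.5 reads in the knockdown, 22.2 in the control) and COL1A2 (25.7 in the knockdown, 12.3 in the control) were also called higher and CD79A (9.26 in the knockdown, 26.3 in the control) lower. The 4 stromal markers together had 117 to 305 deposited counts in the knockdown libraries and 41 to 146 in the control libraries, and their part in the results was not tested.

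The RefSeq promoter table (GRCh38.p14, 250 bases before to 50 after a start) had entries for CCNA1, CCNA2, CCNB1, CCNB2, CCND3 and CCNE1, and not for CCND1, CCND2 and CCNE2. Promoters of cyclins that peak in G2 and mitosis are known for CHR elements and CCAAT boxes. Both were searched on both strands, the CHR element by the word TTTGAA, by TTCGAA and also by CTTGAA, the box by the word CCAAT, and the words do not overlap in the stretches shown. A CHR word was present in 24.9% of all 35116 promoters, and a CCAAT word in 34.6%. The stretches below are shown because CCNA2 and CCNB2 moved together, while CCNB1 and CCNA1 each moved differently. CCNE1 moved like CCNA2 and CCNB2 and held neither word. Stretches picked by the change of their genes cannot show a link between word and change. Capitals mark the word found, sequences run 5′ to 3′ on the gene's strand, and positions count from the start, which is 0.
CCNA2 (CHR word at -28, chr4:121823894-121823923, minus strand): agtcgcgggataCTTGAActgcaagaacag
CCNB2 (CHR word at -29, chr15:59105105-59105134, plus strand): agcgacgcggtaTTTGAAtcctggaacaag
CCNB2 (CCAAT word at -54, chr15:59105080-59105109, plus strand): gcgcagggccgcCCAATggggcgcaagcga
CCNB1 (CCAAT word at -55, chr5:69167083-69167112, plus strand): gccacgaacaggCCAATaaggagggagcag
CCNA1 (no word, -40 to -11, chr13:36431915-36431944, plus strand): ggggttgttagcggctgttgggagaacggg
Over the whole 300-base entries, CCNA2 held 2 CHR words and 1 CCAAT word, and CCNB2 held 1 CHR word and 4 CCAAT words. CCNB1 held 2 CCAAT words and 0 CHR words, and CCNA1 and CCNE1 held 0 of either. CCND3 has 3 entries, with 0 CHR words in each and 1, 1 and 0 CCAAT words. E2F words (TTTGGCGC, TTTCCCGC, TTTCGCGC or TTTGCCGC), present in 3.31% of promoters, were in 0 of the members' entries. GC boxes (GGGCGG), present in 45.0% of promoters, numbered 1 each in CCNA1, CCNB1 and CCNB2, 3 in CCNA2 and 7 in CCNE1. The 3 entries of CCND3 held 0, 4 and 5. These are matches of letters, which say nothing of what binds there.

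MELK knockdown libraries had more transcript of CCNA1, CCNA2, CCNB2 and CCNE1, and less of CCNB1 and CCND1. CCNA1 rose far more than any other member, about 18.2-fold with the added number modelled, against at most 1.65-fold for any other member. The size of the CCNA1 rise varied with the settings of the model, as given below. CCND3, the highest D cyclin, was at 1.02-fold and did not pass the test. CCND2 and CCNE2 had too few reads for the deposited counts to decide. In edgeR's quasi-likelihood test, 4 of the 9 members were higher, 2 were lower and 3 did not pass an adjusted p of 0.05. Over all 28303 genes tested, 16.5% passed, with 8.12% higher and 8.43% lower. The added number weighs little on genes averaging 500 counts or more, where 4 of 7 members were higher and 2 lower, against 38.1% higher, 38.9% lower and 77.0% either way of all 5038 such genes. With the added number modelled, 4 of the 9 were higher and 3 lower, against 13.6% of all genes called in either direction, and 67.4% of those averaging 500 counts or more. The share of members that passed was near that of other well-counted genes. Groups whose deposited CPM do not overlap, as described for several members below, were seen in 30.7% of all genes tested and in 78.7% of those averaging 500 counts or more.

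**Figure D1:**
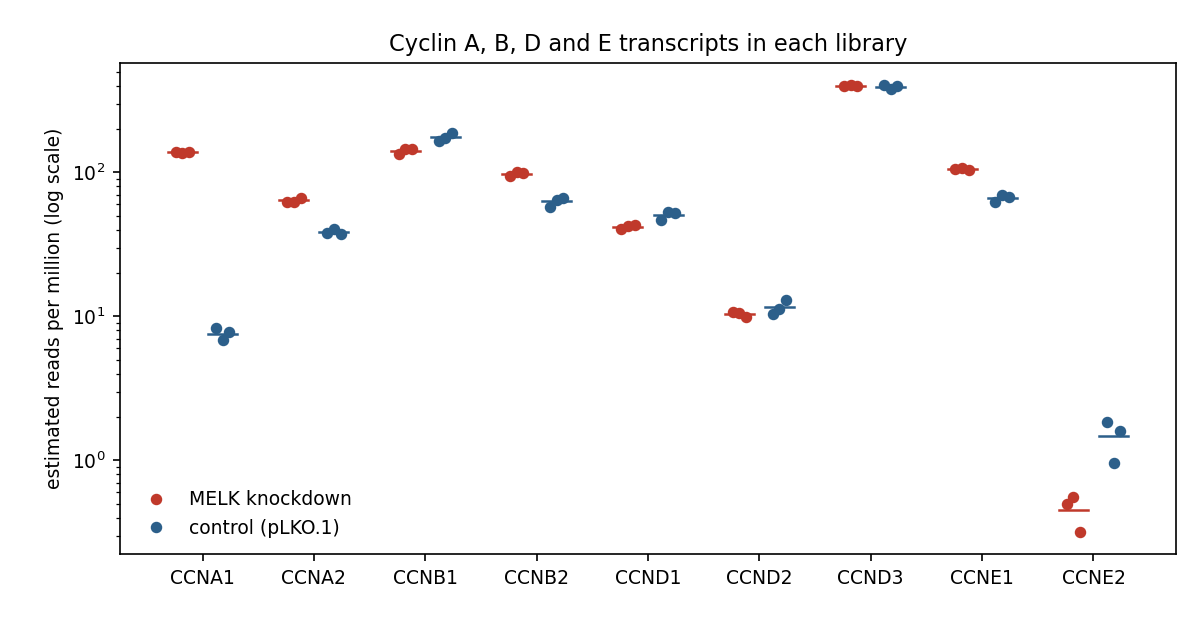
Estimated CPM (log axis) of each cyclin, with the added number modelled, in the 3 MELK knockdown libraries (left of each pair) and the 3 control libraries; each point is a library and each line a group mean. CCNA1 lies between 136.5 and 139.4 CPM in the knockdown libraries and between 6.80 and 8.26 CPM in the control libraries, and CCND3 and CCND2 overlap between groups.

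CCNA1, cyclin A1 (ENSG00000133101.10, GRCh38 chromosome 13, 36431520 to 36442882, plus strand), had deposited counts of 2831, 2845 and 2714 in the knockdown libraries, against 177, 236 and 262 in the control libraries. The groups were far apart, and the knockdown libraries lay close together. No other annotated gene overlaps CCNA1. In CPM of deposited counts it averaged 139.1 ± 1.57 in the knockdown and 10.92 ± 2.16 in the control (SD, n = 3 each), and on the log2 scale it rose by 3.67 ± 0.12 (SE, edgeR adjusted p = 4.58e-07). Among the 5038 genes averaging 500 counts or more, this was the third largest increase. The control counts are low enough for the added number to matter. With it modelled, the knockdown libraries held 2808, 2825 and 2693 reads, and the control libraries 173, 136 and 162 reads, since 100 was the likeliest added number in control replicates 2 and 3. The modelled log2 fold change was 4.18 (95% interval 4.0 to 4.36). With a dispersion 5 times as large it was 3.69 (95% interval 3.39 to 4.47). Whatever number from the 5 was added in each library, the log2 ratio of the group means stayed between 3.62 and 4.52, with the groups apart. Without control replicate 1, the library whose value was lowest, the modelled value fell to 3.52, and the fits without another library reached 4.19.

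CCNA2, cyclin A2 (chromosome 4, 121816444 to 121823933, minus strand), also rose, by much less. Its deposited counts were 1273, 1289 and 1341 in the knockdown libraries, against 796, 891 and 783 in the control libraries. All 3 knockdown libraries lay above all 3 control libraries. Its log2 fold change was 0.69 ± 0.08 (SE, edgeR adjusted p = 0.000479), and 0.73 with the added number modelled (95% interval 0.56 to 0.88). It was at 0.37 with the trend over GC content and gene length removed (edgeR adjusted p = 0.000164). EXOSC9, a subunit of the RNA exosome, overlaps CCNA2 by 578 bases on the opposite strand and had counts of 418, 382 and 321 in the knockdown libraries, against 158, 136 and 189 in the control libraries. Whether the counting used strand is not given in the sources used here, and reads of the overlap cannot be told apart. CCNA1 made up 71.6 ± 0.830% of A cyclin transcript per length in the knockdown and 18.7 ± 2.12% in the control (SD, n = 3 each), with the added number modelled. The exact two-sided permutation test over libraries gave p = 0.1 for that share, the smallest that 3 against 3 libraries allow. Modelled reads were fitted within each group and not fitted anew for each split. The p-values of this test, here and below, are therefore not strictly exact.

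The B cyclins, which activate CDK1 for mitosis, moved in opposite directions. CCNB1, cyclin B1 (chromosome 5, 69167010 to 69178245, plus strand), had deposited counts of 2703, 3034 and 2844 in the knockdown libraries, against 3442, 3477 and 3994 in the control libraries. The knockdown libraries were all lower, and the gap between the groups was narrower than the spread of the control libraries. CCNB1 fell by 0.31 ± 0.06 on the log2 scale (SE, edgeR adjusted p = 0.00812), and the modelled interval was -0.44 to -0.18. Without control replicate 3, its highest library, CCNB1 no longer passed (-0.24, edgeR adjusted p = 0.0625), though that fit also tested more genes, 40268 against 28303. With the trend over GC content and gene length removed CCNB1 was at -0.60 and CCNB2 at 0.37, both still past the threshold. CCNB2, cyclin B2 (chromosome 15, 59105078 to 59125045, plus strand), had 1905, 2122 and 1938 counts in the knockdown libraries, against 1205, 1318 and 1440 in the control libraries. It was higher in every knockdown library than in any control library. AC092757.2 overlaps CCNB2 by 4012 bases on the same strand and AC092757.3 by 543 bases on the opposite strand. Both held only the 5 values, and how reads of the overlaps were counted is not given in the sources used here. CCNB2 rose by 0.62 ± 0.07 (SE, edgeR adjusted p = 0.000335), with a modelled interval of 0.49 to 0.79. As a share of B cyclin transcript per length, CCNB1 was at 61.2 ± 0.411% in the knockdown and 75.3 ± 0.668% in the control (SD, n = 3 each, exact permutation p = 0.1). CHR words stood in the entries of CCNA2 and CCNB2, which rose. None stood in those of CCNB1, which fell, of CCNA1 and CCNE1, which rose, or of CCND3, which did not pass.

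The E cyclins start DNA replication with CDK2, and nearly all E cyclin transcript here came from CCNE1. CCNE1 (chromosome 19, 29811898 to 29824308, plus strand) had deposited counts of 2145, 2236 and 2032 in the knockdown libraries, against 1300, 1423 and 1440 in the control libraries. The groups did not overlap. CCNE1 rose by 0.66 ± 0.06 (SE, edgeR adjusted p = 7.27e-05), and the modelled interval was 0.53 to 0.81. No annotated gene overlaps it. CCNE2, cyclin E2 (chromosome 8, 94879770 to 94896678, minus strand), had only 110, 13 and 7 counts in the knockdown libraries, against 47, 20 and 38 in the control libraries. The value of 110 is the highest of the 6, and the other knockdown values are the lowest. As deposited, the log2 fold change of CCNE2 was 0.34 ± 1.52 (SE, edgeR adjusted p = 1.00). The model put the added number of knockdown replicate 1 at 100, and gave 10, 11.4 and 6.20 reads in the knockdown libraries, against 38.8, 19.2 and 33.8 in the control libraries, a log2 fold change of -1.70 (95% interval -2.60 to -1.04). Over every number that could have been added, the ratio of group means ran from -2.49 to 0.84 on the log2 scale, so the deposited values alone fix no direction. The modelled reads of a library lean towards its group's mean, so the gap between modelled groups is not an independent check. INTS8 and NDUFAF6 overlap CCNE2 on the opposite strand by 1977 and 912 bases, and reads of the overlaps cannot be told apart.

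The D cyclins, which carry growth signals to CDK4 and CDK6, changed least. CCND3 (chromosome 6, 41934933 to 42050357, minus strand) had deposited counts of 8082, 8338 and 7739 in the knockdown libraries, against 8414, 7622 and 8322 in the control libraries. The groups overlapped. The CCND3 log2 fold change was 0.02 ± 0.03 (SE, edgeR adjusted p = 0.717). The modelled interval of -0.10 to 0.15 leaves out changes of the size seen in CCNA2, CCNB2 and CCNE1 in the same setting. That interval does not cover the choice of scaling or the trend over GC content and gene length. With that trend removed CCND3 was at 0.16 and passed (edgeR adjusted p = 2.67e-05), with CCNA2 and CCNB2 at 0.37 and CCNE1 at 0.68. CCND1 (chromosome 11, 69641087 to 69654474, plus strand) had 818, 886 and 862 counts in the knockdown libraries, against 981, 1109 and 1129 in the control libraries. The knockdown libraries were all lower, though numbers that could have been added would let the groups overlap. CCND1 fell by 0.29 ± 0.08 (SE, edgeR adjusted p = 0.0344), with a modelled interval of -0.45 to -0.11. This call is fragile, since it was lost without knockdown replicate 1 (edgeR adjusted p = 0.0742), knockdown replicate 2 (0.0963), control replicate 2 (0.0542) or control replicate 3 (0.195), in fits that also tested more genes. LTO1 overlaps CCND1 by 1399 bases on the opposite strand, with 290 to 382 counts in the 6 libraries.

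CCND2 (chromosome 12, 4273772 to 4305350, plus strand) had deposited counts of 316, 220 and 196 in the knockdown libraries, against 221, 229 and 278 in the control libraries. Knockdown replicate 1 was the highest of all 6, and the other 2 knockdown libraries had the lowest counts. Its log2 fold change was 0.04 ± 0.20 (SE, edgeR adjusted p = 1.00) as deposited and -0.23 without knockdown replicate 1. With the added number modelled, knockdown replicate 1 came down to 216 reads, and the log2 fold change was -0.16 (95% interval -0.36 to 0.10). Another annotated gene, AC008012.1, covers the whole of CCND2 on the same strand and held only values of the 5, with 1, 10 and 1 in the knockdown libraries and 2, 0 and 2 in the control libraries. How reads shared by both genes were counted is not given in the sources used here, which leaves the level of CCND2 uncertain.

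**Figure D2:**
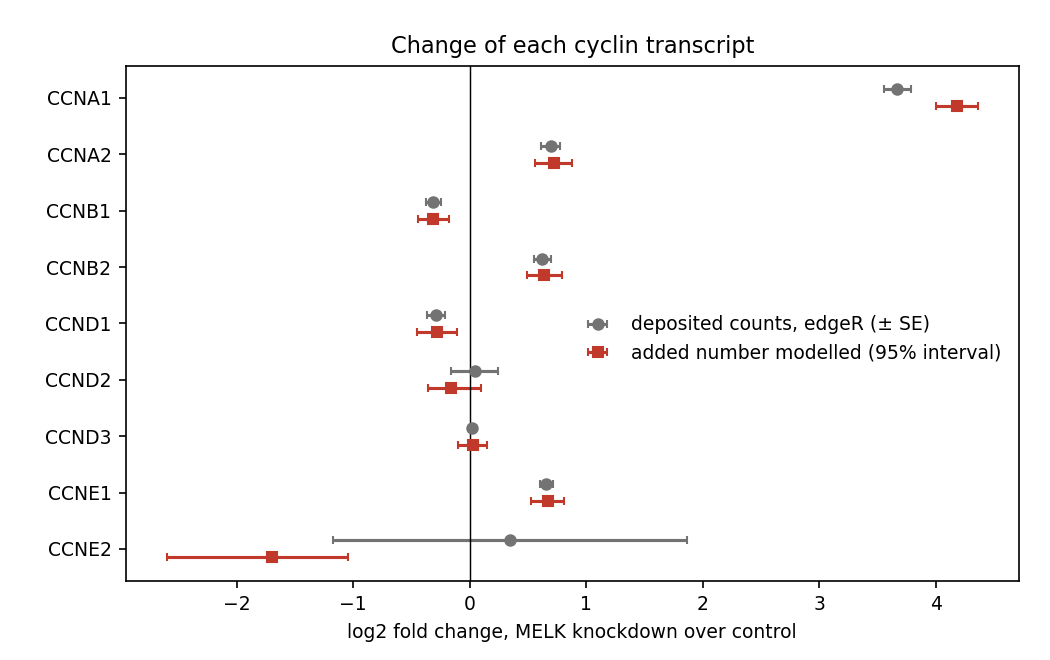
Log2 fold change of each cyclin, MELK knockdown over control (n = 3 each), from the deposited counts (edgeR, bars are SE) and with the added number modelled (bars are 95% intervals). CCNA1 stands at 3.67 and 4.18, the other members lie between -0.31 and 0.73, and CCNE2 changes sign between the versions, at 0.34 and -1.70.

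Levels of different cyclins are comparable only per length, here as modelled CPM per kilobase of merged exons. Merged exons join all annotated transcripts of a gene (5802 bases for CCND3, 2558 for CCNB1). The order, shares and sums depend on this choice, and other lengths were not tested. In the knockdown the order was CCND3 (68.8 ± 0.527), CCNA1 (57.5 ± 0.612), CCNB1 (55.2 ± 2.57), CCNE1 (41.3 ± 0.690), CCNB2 (34.9 ± 1.29), CCNA2 (22.8 ± 0.959), CCND1 (8.69 ± 0.295), CCND2 (1.45 ± 0.058) and CCNE2 (0.104 ± 0.028) (SD, n = 3). Neighbours in that order did not overlap between libraries, although CCNA1 and CCNB1 did from deposited CPM per kilobase (57.28 to 58.58 for CCNA1, 52.48 to 57.31 for CCNB1). In the control the order was CCNB1 (68.5 ± 4.95), CCND3 (67.6 ± 1.88), CCNE1 (26.0 ± 1.53), CCNB2 (22.4 ± 1.72), CCNA2 (13.8 ± 0.682), CCND1 (10.5 ± 0.745), CCNA1 (3.17 ± 0.308), CCND2 (1.62 ± 0.184) and CCNE2 (0.336 ± 0.105) (SD, n = 3). Only CCNB1 and CCND3 overlapped there. CCNA1 thus stood near CCNB1 in the knockdown and held the seventh place in the control. Since modelled reads lean towards the group's mean, the SD of a low gene here understates the spread of its libraries.

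**Figure D3:**
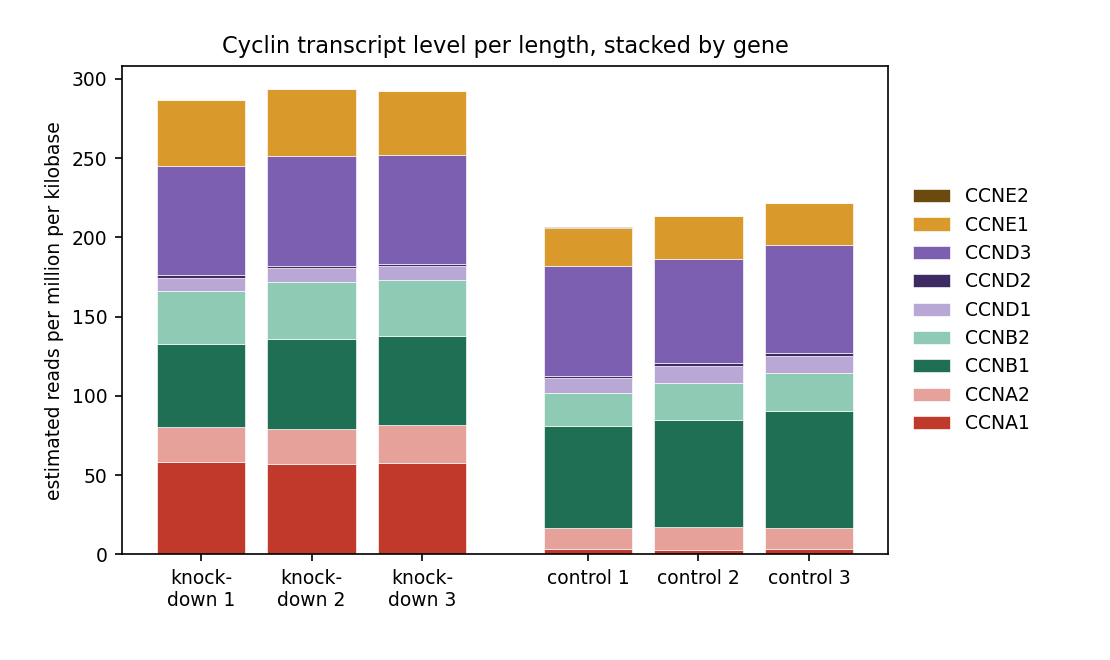
Modelled CPM per kilobase of merged exons in each MELK knockdown library (left) and control library (right), as bars stacked by cyclin. The CCNA1 part is 57.5 ± 0.612 in the knockdown and 3.17 ± 0.308 in the control, while the CCND3 part is 68.8 ± 0.527 in the knockdown and 67.6 ± 1.88 in the control (SD, n = 3 each).

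The sum of the 9 cyclins per length was 290.7 ± 3.64 in the knockdown and 214.0 ± 7.70 in the control (SD, n = 3 each), in modelled CPM per kilobase. The A cyclins summed to 80.3 ± 1.24 in the knockdown and 16.9 ± 0.448 in the control, and the E cyclins to 41.4 ± 0.717 in the knockdown and 26.3 ± 1.44 in the control. In neither class did the groups overlap, and the exact two-sided permutation test gave p = 0.1, the smallest possible with 20 splits. The sums of the other classes overlapped between groups. The B cyclins summed to 90.1 ± 3.81 in the knockdown and 90.9 ± 6.53 in the control (exact permutation p = 1.0), and the D cyclins to 79.0 ± 0.461 in the knockdown and 79.8 ± 1.45 in the control (exact permutation p = 0.4). The smaller share of B cyclins in the sum of all 9, 31.0 ± 0.929% in the knockdown and 42.5 ± 1.52% in the control, and that of D cyclins, 27.2 ± 0.322% in the knockdown and 37.3 ± 1.36% in the control, thus stand beside sums that overlap. CCNA1 was 19.8 ± 0.45% of the sum of all 9 in the knockdown and 1.48 ± 0.172% in the control. Without CCNA1 the sums were 233.2 ± 4.21 in the knockdown and 210.8 ± 7.81 in the control (exact permutation p = 0.1).

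The rise of CCNA1 was then set against the change of each other member, within the same libraries. The modelled difference of log2 fold changes, CCNA1 minus the other gene, was smallest against CCNA2, at 3.46 (95% interval 3.21 to 3.70). It was 3.51 against CCNE1 (3.28 to 3.75) and 3.54 against CCNB2 (3.31 to 3.78), the other members that rose. Against CCND3 it was 4.16 (3.94 to 4.38), against CCND2 4.34 (4.07 to 4.61), against CCND1 4.46 (4.21 to 4.71) and against CCNB1 4.49 (4.27 to 4.72). Against CCNE2, where few reads widen the interval, it was 5.88 (5.19 to 6.79). Every interval lies above 0, and the log2 ratio of CCNA1 to the other gene did not overlap between groups in any of the 8 pairs. CCNA1 was chosen for this contrast with its rise already known, so neither is independent evidence of a difference. The exact two-sided permutation test gave p = 0.1 for each pair, and 0.1 after Benjamini-Hochberg adjustment over the 8. That is the smallest value possible, and the ratios rest on reads modelled within each group, so the test is not strictly exact. The 8 differences share the values of CCNA1 and are not independent. Without control replicate 1 they were lower, down to 2.82 against CCNA2 and 4.92 against CCNE2. With a dispersion 5 times as large the difference against CCNA2 was 2.99 (95% interval 2.55 to 3.88).

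**Figure D4:**
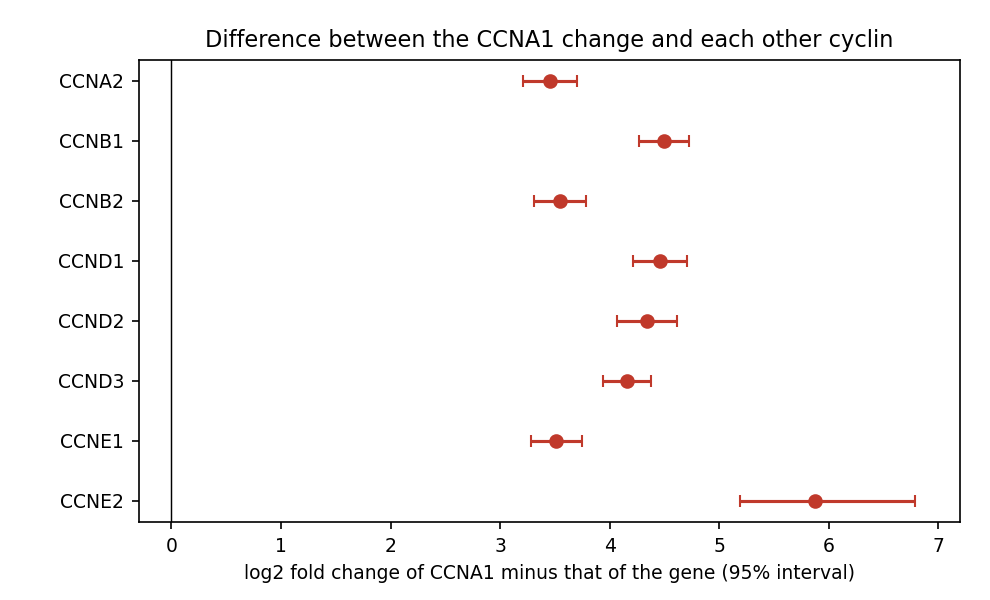
Modelled log2 fold change of CCNA1 minus that of each other cyclin, MELK knockdown over control, with 95% intervals. The differences lie between 3.46 (CCNA2) and 5.88 (CCNE2), and the lowest bound is 3.21.

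The 5 genes averaging 500 counts or more whose profile over the 6 libraries was most like that of CCNA1 were TM4SF1, MMP1, TSPAN13, DUSP5 and A2M. Likeness was measured as the Euclidean distance between log2 CPM of the deposited counts, centred on each gene's mean. It was 0.558 for TM4SF1, 0.623 for MMP1, 0.965 for TSPAN13, 1.23 for DUSP5 and 1.30 for A2M. With the added number modelled, their log2 fold changes were 3.36, 3.32, 3.58, 2.93 and 5.10 in that order, against 4.18 for CCNA1. The distance was not measured on modelled values, so the order holds for deposited counts alone. TM4SF1, a membrane protein of the tetraspanin-like family, averaged 113.4 ± 8.11 CPM in the knockdown and 11.06 ± 0.829 CPM in the control (SD, n = 3 each). MMP1, a collagenase, averaged 162.8 ± 10.91 CPM in the knockdown and 17.89 ± 4.08 CPM in the control. With 2 groups of 3 libraries, such a distance mostly reflects the size of the change.

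The partners and regulators of the cyclins were read from gene lists, each beside all genes tested, where the median log2 fold change was 0.02 and 16.5% passed (77.0% of those averaging 500 counts or more). Of the CDK partners, CDK2, the partner of A and E cyclins, rose by 0.45 ± 0.06 and CDK4, a partner of D cyclins, fell by 0.24 ± 0.03 on the log2 scale (SE, edgeR adjusted p = 0.000919 and 0.000762). CDK1, the mitotic kinase, was at -0.18 ± 0.20 and CDK6 at -0.20 ± 0.43, and neither passed (edgeR adjusted p = 0.723 and 0.919). CDK6 was called lower with the added number modelled, at -0.79 (95% interval -1.05 to -0.25). Of the CDK partners averaging 500 counts or more, 2 of 2 passed (100%, against 77.0% of all such genes). Of 7 CDK inhibitors, 4 rose and 0 fell, with a median of 0.19, and 2 of the 4 averaging 500 counts or more passed (50.0%, against 77.0% of all such genes). CDKN1A (p21) rose by 1.81 ± 0.05, CDKN2B (p15) by 1.98 ± 0.13, CDKN1B (p27) by 0.87 ± 0.09 and CDKN2C (p18) by 0.16 ± 0.03, while CDKN1C, CDKN2A and CDKN2D lay between 0.14 and 0.19 and did not pass. CDKN2C was not among the calls with the added number modelled, where CDKN2A was.

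Of 9 enzymes and subunits that activate or tune CDKs, 3 rose, 2 fell and 4 did not pass. In the fit over genes averaging 500 counts or more, 6 of 6 passed (100%, against 77.0% of all such genes). CKS2, a small CDK-binding subunit, rose by 1.36 ± 0.05 and its paralogue CKS1B by 0.32 ± 0.03. CDC25A, a phosphatase that activates CDK2, rose by 0.44 ± 0.04, while CDC25B, which activates CDK1, fell by 0.38 ± 0.05, and PKMYT1, which inhibits CDK1 by phosphorylation, fell by 0.54 ± 0.07. WEE1 (-0.29 ± 0.09), CDC25C (-0.09 ± 0.11), CDK7 (0.57 ± 0.21) and MNAT1 (0.60 ± 1.26) did not pass in the main fit. WEE1 did pass when only genes averaging 500 counts or more were fitted. The model of the added number called WEE1 lower (-0.35) and both CDK7 (0.58) and MNAT1 (0.62) higher. It left CDC25C uncalled. Of 27 genes of the ubiquitin ligases that destroy cyclins, 10 rose, 3 fell and 14 did not pass, with a median of 0.28. Of the 14 averaging 500 counts or more, 64.3% passed, against 77.0% of all such genes. CDC16 (0.98 ± 0.10), ANAPC16 (0.46 ± 0.11) and UBE2S (0.82 ± 0.09) belong to or serve the anaphase-promoting complex, which marks A and B cyclins for destruction. The members of the list that fell in edgeR, named after their values were seen, belong to the same complex. They were ANAPC15 (-1.61 ± 0.13), CDC23 (-0.31 ± 0.08) and ANAPC5 (-0.23 ± 0.04). With the added number modelled, 14 of the list were called higher and 4 lower. FBXW7 was then also among the lower, at -0.66 (95% interval -0.92 to -0.40), and was likewise named after its value was seen. RBX1 (0.76 ± 0.07) is the RING subunit of the SCF ligases, which destroy cyclin E. Values in this paragraph given with ± are edgeR log2 fold changes ± SE.

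Of 23 transcription regulators of cyclin genes, 7 rose and 3 fell, with a median of 0.10, and 72.7% of the 11 averaging 500 counts or more passed. MYBL2, which activates G2 and mitosis genes, rose by 0.66 ± 0.04 and the E2F partner TFDP1 by 0.40 ± 0.05, and the activator E2F2 fell by 0.84 ± 0.07 and the chromatin subunit RBBP4 by 0.53 ± 0.06. Among S phase genes 4 of 14 rose and 7 fell (median -0.24, 76.9% of the 13 averaging 500 counts or more passed), with the replication licensing factor CDT1 at -0.96 ± 0.04, the helicase subunits MCM3 at -0.85 ± 0.05 and MCM5 at -0.82 ± 0.04, and CDC45 at -0.82 ± 0.07. Among G2 and mitosis genes 5 of 14 rose, 1 fell and 8 did not pass (median 0.32, 75.0% of the 8 averaging 500 counts or more passed), with the mitotic kinesin KIF20A at 1.29 ± 0.06, the kinase AURKA at 0.88 ± 0.12, CDCA8 at 0.68 ± 0.03 and the checkpoint kinase BUB1 at 0.42 ± 0.06. The 1 that fell, named after its value was seen, was AURKB, another mitotic kinase (-0.35 ± 0.08). In these lists the share that passed was near the 77.0% of all well-counted genes. No list was tested as a set, and the lists were chosen with earlier results known.

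Of 20 other cyclins, 19 were tested, and 6 rose, 2 fell and 11 did not pass, with a median of 0.27. Over all genes tested 16.5% passed, and of those averaging 500 counts or more 7 of 7 other cyclins did, against 77.0% of all such genes. CCNC, the partner of the Mediator kinase, rose by 1.18 ± 0.10, CCNG1, a p53 target, by 0.47 ± 0.06, CCNF, an F-box protein, by 0.42 ± 0.05 and CCNY, a membrane-bound cyclin, by 0.36 ± 0.04 (edgeR log2 fold change ± SE). CCNQ, the activator of CDK10, and CCNL2, a cyclin of splicing, fell by 0.76 ± 0.17 and 0.18 ± 0.04, and were named after their values were seen. With the added number modelled, 7 of the 20 were called higher and 2 lower. CCNL2 was not among these calls, while CCNG2 (0.78) was called higher and CCNJL (-1.06) lower. The largest of these changes is well under that of CCNA1.

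**Figure D5:**
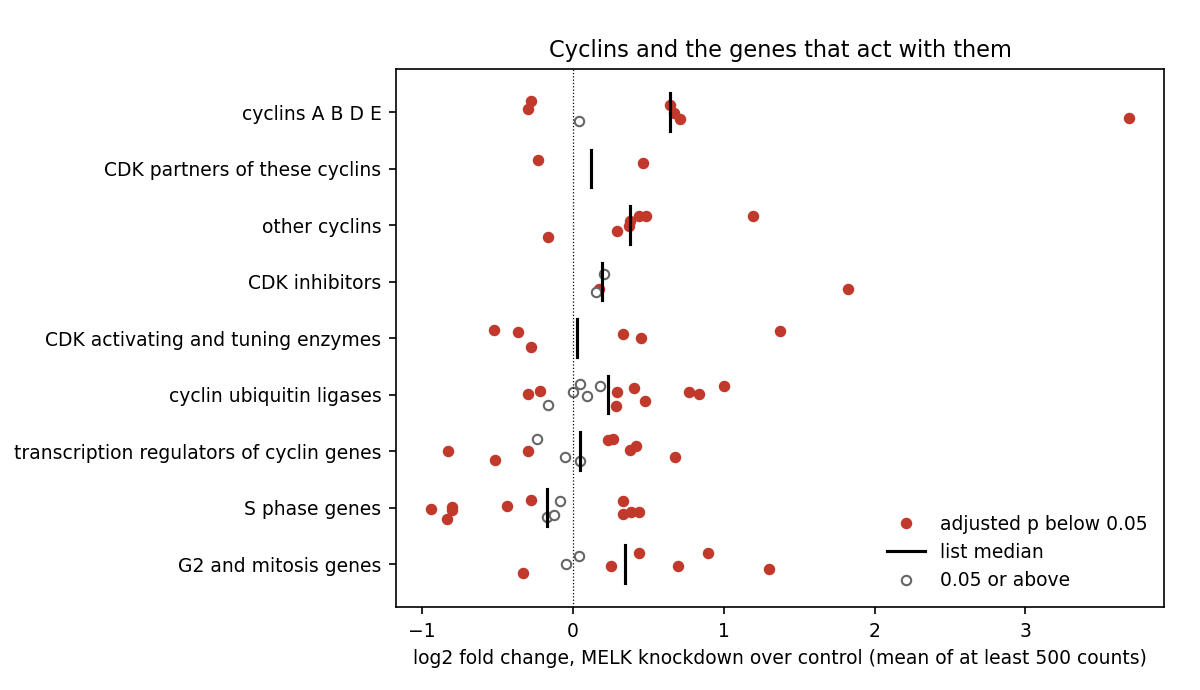
Log2 fold change, MELK knockdown over control, of the genes of each list averaging 500 counts or more; each point is a gene, filled where the adjusted p of the edgeR fit over such genes is below 0.05, and each bar is the list's median. CCNA1 is the point at 3.69, and the medians run from -0.17 for S phase genes to 0.64 for the A, B, D and E cyclins, with the other cyclins at 0.38.

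Since CCNA1 is best known from male germ cells, 12 genes of germ-line meiosis, such as the synaptonemal complex genes SYCP1 and SYCP3, were read beside it. Of these, 8 held only the 5 values, 6 were tested, and 0 passed in edgeR (0 also at an unadjusted p below 0.05) or with the added number modelled, while DESeq2 called 1 lower. INCA1 and PROCA1, which encode proteins that bind cyclin A1, were at -0.33 ± 0.90 and 1.14 ± 1.34 (SE) and did not pass (edgeR adjusted p = 0.926 and 0.742). With the added number modelled INCA1 had 5.83 reads per library in the knockdown and 10.6 in the control, and PROCA1 had 32.8 in the knockdown and 27.6 in the control.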

How the data were processed

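Whole-number counts for each gene in 6 libraries were deposited as a single table. STAR, HTSeq, fastp, FastQC, DESeq2 and R 4.3.3 on GRCh38 are named in the submitters' processing notes, without roles. No source used here gives the annotation release, the counting mode or the strand setting. The members, the gene lists, the tests and the naming rule were chosen with earlier results of these data known. Groups and replicate numbers came from the sample titles. The labels call the replicates biological, and whether they were separate cultures or transductions is not stated, and p-values therefore cover the spread among libraries alone, which may be technical.

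Symbols came from a separate gene name reference, which named 61803 of 61852 genes. Coordinates and merged exon lengths came from GENCODE 29. Counts were fitted with edgeR 4.0.16 (TMM, filterByExpr, robust quasi-likelihood F-test, no covariate), adjusted by Benjamini-Hochberg over 28303 genes, with a threshold of 0.05. The SE was derived from the F statistic. CPM used TMM library sizes. A second model took each count as a negative binomial read count plus 0, 1, 2, 10 or 100 with equal chance, with a dispersion of 0.00292 taken from genes averaging 500 counts or more, a likelihood-ratio test over 61852 genes, and 95% profile intervals. Both were tested on simulated data. Alternatives were other scalings, filters, DESeq2 1.42.0, limma 3.58.1 (voom), GC and length correction, a replicate block, other settings of the model and each library left out. From gene lists of 10 or fewer every gene was named, and from longer lists up to 4 with the largest change among those past the threshold and averaging 500 counts or more. Lymphoid, epithelial and stromal markers are given as counts, with those called. A marker gene of the lists is not reported here.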

Additional observations from a re-analysis of the deposited data

How the results depend on the processing

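CCNA1, CCNA2, CCNB2 and CCNE1 kept their direction and their call under every alternative run, in edgeR and with the added number modelled. The modelled CCNA1 change was 3.69 with a dispersion 5 times as large, against 4.18 in the main setting. CCNB1 lost its call without control replicate 3, with edgeR values of -0.38 to -0.24 over the fits without 1 library, and with a dispersion 5 times as large (-0.31, adjusted p = 0.224). CCND1 lost its call with library size alone (-0.22), with limma-voom (-0.29) and in 4 of the 6 fits without 1 library (-0.36 to -0.26). With the added number modelled it lost it with a dispersion 5 times as large (-0.30) and in 3 of the 6 fits without 1 library (-0.36 to -0.23). CCND3 gained a call with library size alone (0.10, adjusted p = 0.0298) and with the GC and length trend removed (0.16, adjusted p = 2.67e-05), and its sign turned without some libraries (-0.056 to 0.052). That sign turned for CCND2 as well, with -0.16 modelled and -0.23 to 0.14 without 1 library. CCNE2 turned to -0.54 with limma-voom, -0.56 with the replicate block and -1.70 modelled, and ranged from -1.81 to 0.81 without 1 library. MELK gained a call with no filter (-1.98), with 5 CPM in at least 3 libraries (-1.99), with limma-voom (-2.48) and modelled (-3.39), and ranged from -3.33 to -1.59 without 1 library. The causes were not tested.

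The number of changed genes was 4683, against 9858 with DESeq2, 8387 with the added number modelled and 3591 to 3951 without 1 library, where the filter let in 40268 to 40434 genes, against 28303 with all 6 libraries. Same-numbered libraries did not deviate together (correlations 0.0998, -0.0124 and -0.0801). The replicate block gave 4182 changed genes, and 3935 among genes averaging 500 counts or more, and it changed no member's call. No alternative varied the depth, so its limit on genes with few reads was not tested.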

Other observations

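The surroundings of CCNA1 on chromosome 13 were read as well. Of 18 annotated genes within 500 kb, 11 held only the values 0, 1, 2, 10 and 100, 10 were tested and 1 passed in edgeR, a share no higher than the 16.5% of all genes tested. That gene was SPART, which encodes spartin, a protein of lipid droplets and endosomes (36301638 to 36370180, minus strand). It had counts of 297, 306 and 312 in the knockdown libraries, against 170, 130 and 133 in the control libraries, a log2 fold change of 1.12 (edgeR adjusted p = 0.0014). Its groups did not overlap. SERTM1, on the other side of CCNA1 (36673912 to 36697839, plus strand), had counts of 29, 15 and 33 in the knockdown libraries, against 101, 1 and 4 in the control libraries. With the added number modelled this was 20.8 reads in the knockdown and 1.33 in the control. As deposited, SERTM1 did not pass (-0.39, edgeR adjusted p = 1.00), and its direction rests on the value of 101 being mostly an added 100. SMAD9, which had 132, 41 and 24 counts in the knockdown libraries, against 35, 8 and 20 in the control libraries, was called with the added number modelled (0.86) and not in edgeR (1.68, adjusted p = 0.568).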
